A study of Mus musculus with 6 samples.

Results

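Caspases are cysteine proteases that carry out programmed cell death, and this account follows 6 of them, Casp1, Casp2, Casp4, Casp8, Casp9 and Casp12, with the caspase-like inhibitor Cflar and the pore-forming protein gene Gsdmd. All 8 genes were found by their symbols among the 22322 genes of the deposited table, each on a single row, and all 8 were among the 13161 genes tested. The genes were selected on their measured PTN to Control differences in these same libraries, so their levels and fold changes are given as a description with no p-value. The cells were wild-type (WT) mouse neural stem progenitor cells (NSPCs), precursors that can divide to make more of themselves or give rise to neurons and glia. They were treated for 24 h with PTN or, as the Control, with PBS. There were 3 libraries of each treatment. PTN stands in the labels as an abbreviation only, and the series title speaks of its addition in conditioned medium. The labels used here name no dose and no donor tissue, and nothing in them says that replicates were separate cultures. A p-value therefore measures spread among these libraries alone, which may in part be technical.

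The members belong to 2 kinds of death programme. In pyroptosis, an inflammatory lytic death, sensor complexes called inflammasomes activate Casp1, and bacterial lipopolysaccharide inside the cell activates Casp4, known in the mouse as Casp11. Both proteases cut gasdermin D, whose released part opens pores in the plasma membrane, and Casp1 also matures interleukins. In apoptosis, a contained death, Casp8 is activated at death receptors and Casp9 at the apoptosome after mitochondria release cytochrome c, and both then switch on executioner caspases. Cflar occupies the place of Casp8 at death receptors and limits its activity. Neural progenitors are known to be culled by the mitochondrial route during brain development, while the pyroptotic route is best known from macrophages and microglia.

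Of the 8 genes, 2 were called higher after PTN, Casp4 and Cflar, and 0 were called lower. Calls were taken at an adjusted p under 0.05 in edgeR's quasi-likelihood test over all 13161 genes. By the same rule 7.99% of all tested genes were called (4.93% called higher and 3.06% called lower), and because the choice of members used this contrast nothing is read from the member count. The 3 PTN values lay wholly above the 3 Control values in 5 members, Casp1, Casp2, Casp4, Casp12 and Cflar, on the scale of counts relative to library size, adjusted by TMM factors (CPM). That was so for 15.7% of all tested genes, and 32.9% did not overlap in either direction. On FPKM and with upper-quartile scaling the values of Casp2 overlapped and 4 members remained apart. The median log2 fold change of the 8 genes was 0.49, against 0.03 for all tested genes. The members were chosen on this contrast, so nothing is read from that gap either. The plot of CPM by library shows the 8 genes side by side.

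**Figure D1:**
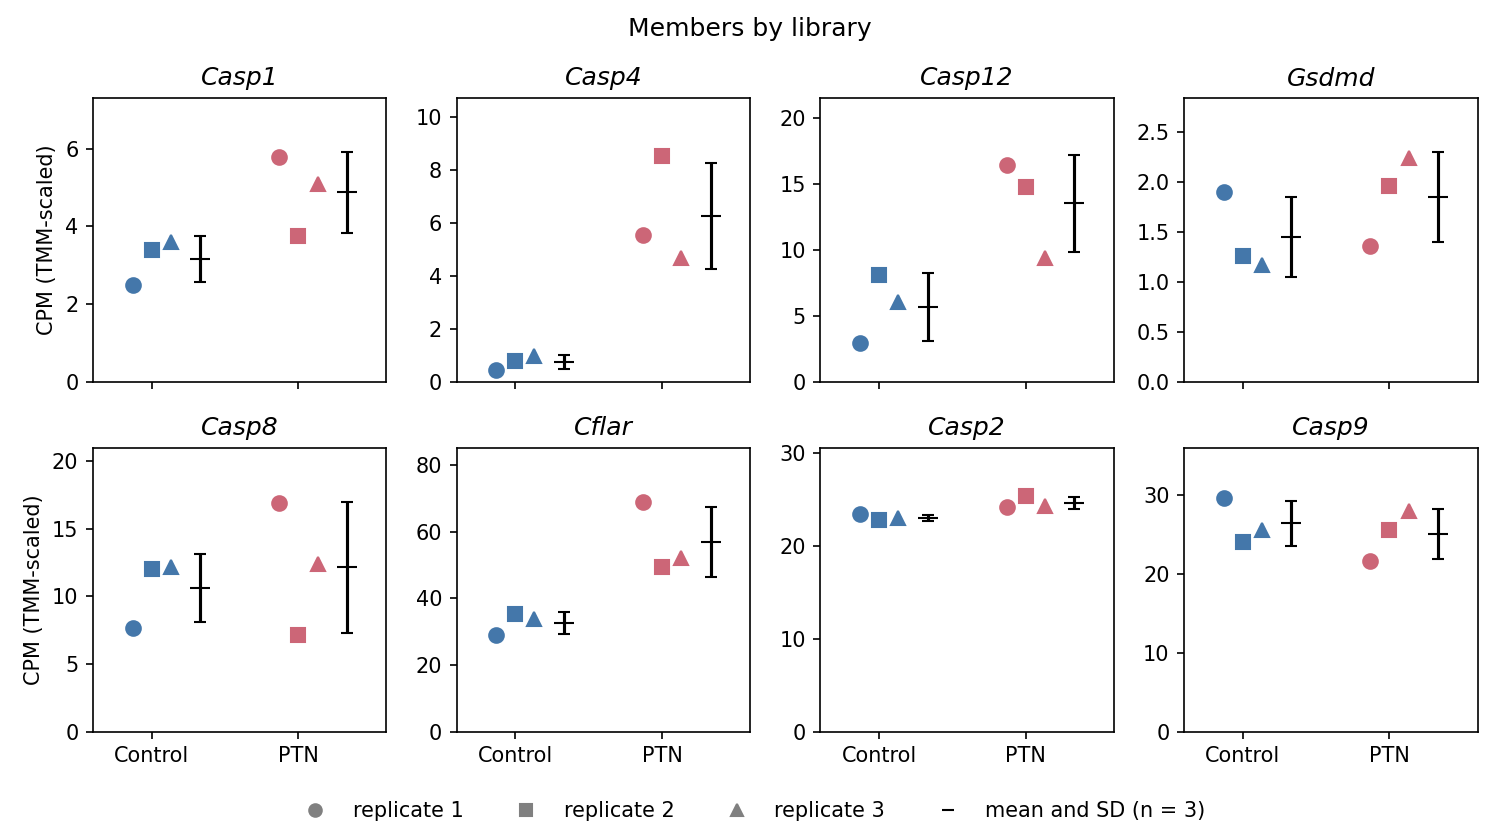
CPM, scaled by TMM factors, of the 8 members in the 3 Control (blue) and 3 PTN (red) libraries, each on a linear axis from 0, with symbols for the replicate number and a black mark with bars for the group mean and SD (n = 3). Casp4 is under 1 CPM in every Control library and between 4.68 and 8.52 CPM in the PTN libraries, while Casp8, Casp9 and Gsdmd overlap between the groups.

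Libraries held between 19267764 and 26341745 expected counts. Across genes, which do not count as independent replicates, log2 CPM gave Pearson's r of 0.961 to 0.987 for pairs of 1 group and 0.930 to 0.966 for pairs of different groups. PTN 3 lay farthest from the others on the second principal component (23.3% of the variance), and its summed CPM of 4 Y-linked genes was 7.96, against 30.3 and 74.2 in PTN 1 and PTN 2 and 49.3 to 102 in Control. The libraries of a group thus differed in their Y-linked RNA. The progenitor markers Nes, Sox2, Vim and Fabp7 were present in every library, with group means of 722, 166, 3448 and 1699 CPM in Control and of 988, 214, 5165 and 1645 CPM in PTN cells. Of 12 such markers 2 were called higher, Vim and Egfr, and 1 lower, Hes5.

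Casp1, Casp4 and Casp12 are the inflammatory caspases of the mouse and lie next to each other, in that order and on the same strand, on chromosome 9 (GENCODE M21). The bases before their starts are shown because these neighbouring genes were the members with PTN values apart from Control that form 1 gene cluster. The sequences come from RefSeq's promoter table on GRCm38.p6, plus strand, from 250 bases before the start up to the first annotated transcript base, and 7 of the 8 members had an entry. No source used here names the build of the deposited table. Capitals mark every match to a motif searched on both strands, namely GGG and CC with any 5 bases between them (NF-kB), TTCNNNGAA (GAS, bound by STAT factors), GAAA repeated after any 2 bases (the interferon element's core), TGANTCA (AP-1), CACGTG (E-box) and TGACGTCA (CRE), of which the first can overlap with itself.
Casp1, chr9:5298267-5298516: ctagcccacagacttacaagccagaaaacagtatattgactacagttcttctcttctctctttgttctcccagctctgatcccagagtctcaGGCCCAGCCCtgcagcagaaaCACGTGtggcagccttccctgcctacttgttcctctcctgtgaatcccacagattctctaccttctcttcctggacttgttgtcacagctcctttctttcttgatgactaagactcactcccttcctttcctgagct
Casp4, chr9:5308599-5308827: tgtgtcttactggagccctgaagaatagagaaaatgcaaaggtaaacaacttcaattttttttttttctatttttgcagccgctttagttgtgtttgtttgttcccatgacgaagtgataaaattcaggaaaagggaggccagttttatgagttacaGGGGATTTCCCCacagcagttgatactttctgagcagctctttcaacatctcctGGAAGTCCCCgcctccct
Casp12, chr9:5345226-5345429: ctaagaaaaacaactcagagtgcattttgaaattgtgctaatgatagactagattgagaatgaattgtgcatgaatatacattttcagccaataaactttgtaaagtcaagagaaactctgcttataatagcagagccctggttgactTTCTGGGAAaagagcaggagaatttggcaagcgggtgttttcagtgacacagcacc

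The Casp4 window of 250 bases held NF-kB motif matches at 3 separate places, 2 of them in the part shown. At 45.4% of the 27025 promoters of the same length this motif was found at least once, and at 6.06% in at least 3 separate places. That limit of 3 was taken from the Casp4 window after it was seen. The first place in Casp4 holds GGGATTTCCC, whose ends fit the motif on both strands. It was singled out after the sequence was seen, and 22 of the 27025 windows (0.0814%) contain it on either strand. Casp1 had 1 match to the NF-kB motif and 1 E-box, the latter being present in 6.04% of promoters. The Casp9 window, not shown, also held the NF-kB motif, which was thus found in 3 of the 7 member windows. Casp12 had the GAS motif at 2 places, 1 of them shown, and 7.14% of promoters held it. The interferon element's core, AP-1 and CRE, found in 3.05%, 6.85% and 1.6% of promoters, matched in none of the 7 member windows. These are matches of letters, not sites of binding.

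Casp4, the sensor protease for intracellular lipopolysaccharide, showed the largest difference of the 8. It was at 0.465, 0.803 and 0.983 CPM in Control 1, Control 2 and Control 3, from 11, 21 and 21 counts. In PTN 1, PTN 2 and PTN 3 it was at 5.55, 8.52 and 4.68 CPM, from 143, 191 and 90 counts. The lowest PTN library was thus well above the highest Control library, and PTN 2 was the highest of all. Casp4 was 8.31-fold higher after PTN, with a log2 fold change of 3.06 ± 0.37 (SE, n = 3 each), a value at or above that of 99.9% of tested genes. Because the members were chosen on this contrast, nothing is read from that rank. The fold ranged from 6.81 to 9.51 when single libraries were left out. The deposited counts and FPKM values of Casp4 together imply a gene length between 0.73 kb, in Control 1, and 1.43 kb, in Control 3, so the FPKM of Control 1, at 0.64, was not the lowest of its group although its CPM was.

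Casp12, which is associated with the endoplasmic reticulum in rodents, came next in size. It was at 2.92, 8.1 and 6.04 CPM in Control 1, Control 2 and Control 3 and at 16.5, 14.8 and 9.41 CPM in PTN 1, PTN 2 and PTN 3. The groups did not overlap, but Control 1 stood low and PTN 3 was close to Control 2. The ratio was 2.38 (log2 fold change 1.25 ± 0.36 SE, n = 3 each), and the gene was not called with all libraries. Without PTN 3 it was called, at a log2 fold change of 1.46, and without Control 1 it was not, at 0.91.

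Casp1, the protease that matures interleukin 1 beta and interleukin 18, was at 2.49, 3.4 and 3.6 CPM in the Control libraries and at 5.78, 3.75 and 5.1 CPM in PTN 1, PTN 2 and PTN 3. PTN 2 was only just above Control 3. The ratio of 1.54 (log2 fold change 0.62 ± 0.26 SE, n = 3 each) was not called, with all libraries or with any 1 left out. Relative to Casp1, the level of Casp4 in FPKM was 0.39, 0.267 and 0.292 in Control 1, Control 2 and Control 3 and 1.04, 2.53 and 1.15 in PTN 1, PTN 2 and PTN 3. On that scale Casp4 was the lower of the pair in every Control library and the higher in every PTN library. In PTN 1 and PTN 3 this order rested on the implied gene lengths. Those were 1.41 and 1.21 kb for Casp4 and 1.53 and 1.51 kb for Casp1. In CPM, which is not scaled by length, Casp4 was below Casp1 in PTN 1 (5.55 against 5.78) and PTN 3 (4.68 against 5.1). On either side of the cluster lie Gria4, an AMPA receptor gene, which rose 3.1-fold (edgeR adjusted p = 0.0059), and Pdgfd, a growth factor gene, at 0.764 and 1.26 CPM in Control and PTN cells and not called.

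Gsdmd, the pore protein that Casp1 and Casp4 cut, was low in all libraries. It was at 1.9, 1.26 and 1.17 CPM in Control 1, Control 2 and Control 3 and at 1.36, 1.96 and 2.24 CPM in PTN 1, PTN 2 and PTN 3, on 25 to 45 counts per library. The groups overlapped, with Control 1 above PTN 1. The log2 fold change of 0.35 ± 0.34 (SE, n = 3 each) was not called, and its error was nearly as large as the estimate. Of 9 other gasdermin genes in the table only Gsdme was expressed highly enough to be tested, at 8.75 ± 0.89 and 10.6 ± 2.34 CPM in Control and PTN cells (SD, n = 3 each), and it was not called.

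Cflar encodes the FLIP proteins, which resemble Casp8 but lack its protease activity. It was at 28.9, 35.4 and 33.7 CPM in Control 1, Control 2 and Control 3 and at 69.1, 49.5 and 52.2 CPM in PTN 1, PTN 2 and PTN 3. All PTN libraries were above all Control libraries, and PTN 1 stood highest. Cflar was 1.74-fold higher after PTN (log2 fold change 0.80 ± 0.17 SE, n = 3 each), and its counts were in part fractional. The call was lost without Control 1, Control 2, Control 3 or PTN 1, where the log2 fold change was 0.69, 0.82, 0.78 and 0.64, and it was kept without PTN 2 and without PTN 3, at 0.89 and 0.86. With the replicate number as a block in the fit the call was also lost, at 0.79.

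Casp8, the initiator protease that Cflar restrains and whose gene is the next protein-coding one after Cflar on chromosome 1 (GENCODE M21), had groups that overlapped. Casp8 was at 7.69, 12 and 12.2 CPM in Control 1, Control 2 and Control 3 and at 16.9, 7.18 and 12.4 CPM in PTN 1, PTN 2 and PTN 3. The PTN libraries held both the highest and the lowest value of all 6. The log2 fold change of 0.20 ± 0.32 (SE, n = 3 each) was not called, and it was -0.12 without PTN 1 and -0.021 without Control 1. In FPKM, Cflar was 1.66, 1.17 and 1.21 times the level of Casp8 in Control 1, Control 2 and Control 3 and 1.74, 2.71 and 1.71 times in PTN 1, PTN 2 and PTN 3. The ratio averaged 1.35 ± 0.28 in Control and 2.06 ± 0.57 in PTN libraries (SD, n = 3 each). The groups did not overlap, but Control 1 was nearly at the level of PTN 1 and PTN 3, as the plot of the ratio shows.

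**Figure D2:**
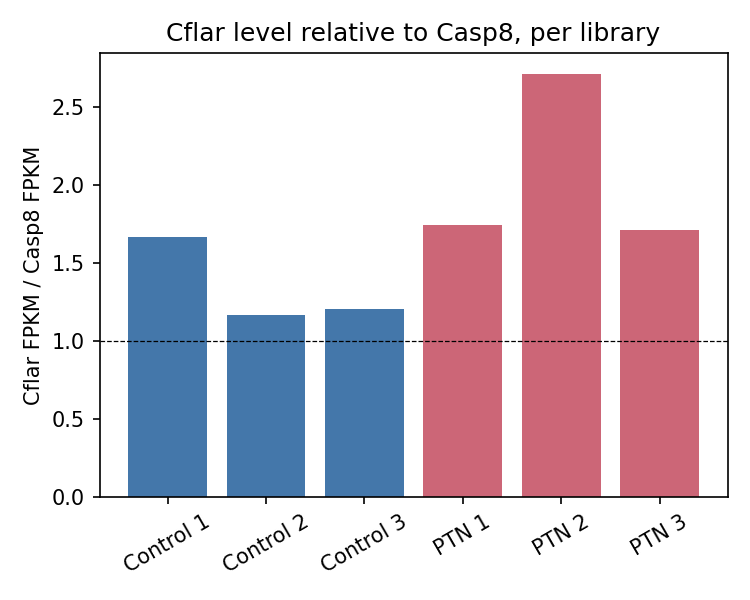
Ratio of the deposited FPKM value of Cflar to that of Casp8 in each library, as bars from 0, with Control in blue, PTN in red and a dashed line at equal levels. The ratio is above 1 in all 6 libraries and is highest in PTN 2, at 2.71.

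The initiators of intrinsic apoptosis differed least. Casp2, activated in the PIDDosome complex after DNA damage or failed division, was at 22.7 to 23.4 CPM in Control and 24.2 to 25.3 CPM in PTN libraries, a log2 fold change of 0.10 ± 0.14 (SE, n = 3 each). Casp2 also varied least among replicates, with a coefficient of variation of 1.4% in Control and 2.57% in PTN libraries, compared with 23.9% and 39.9% for Casp8. Casp9, the protease of the apoptosome, was at 24.1 to 29.6 CPM in Control and 21.7 to 27.9 CPM in PTN libraries (log2 fold change -0.08 ± 0.17 SE, n = 3 each) and had a positive value, 0.017, without PTN 1. Neither was called. Casp9 overlaps Cela2a and Ctrc on the opposite strand, and both of those had 0 counts in every library. Casp2 and Casp8 each overlap a predicted gene on their own strand (Gm25108 and Gm37760), and how reads were shared with those was not tested.

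**Figure D3:**
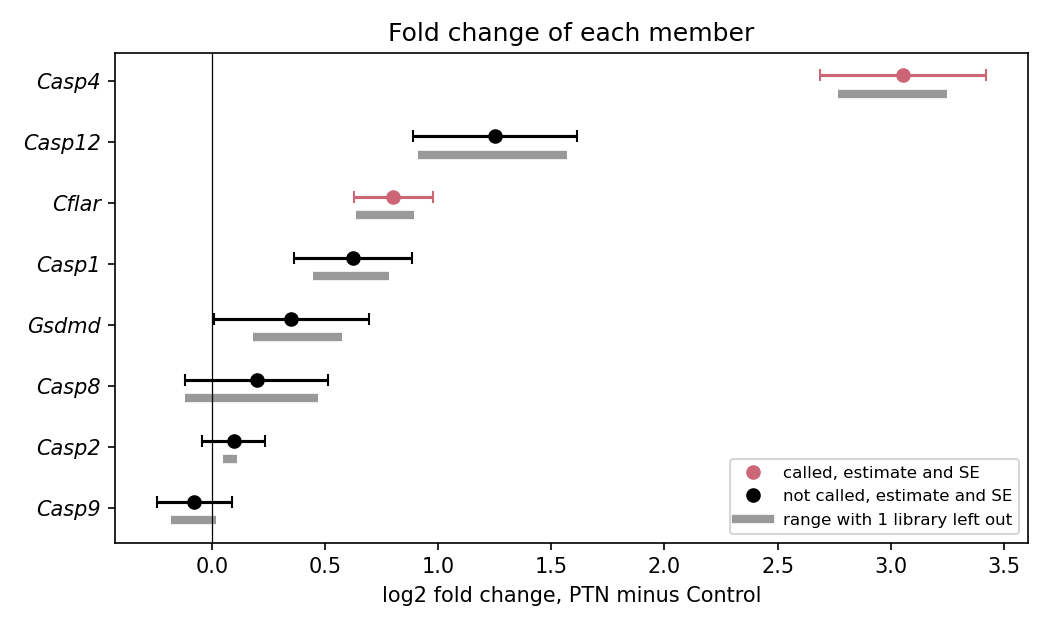
Log2 fold change, PTN minus Control, of each member with its SE (points and bars, red where called at an edgeR adjusted p under 0.05) and, below each point in grey, the range of the estimate when single libraries were left out. Casp4 at 3.06 stands apart from the other 7 members, and the ranges of Casp8 and Casp9 cross 0.

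Levels can be compared between the genes only per length, on the FPKM scale. In Control cells Casp9 (7.59 ± 1 FPKM), Cflar (6.95 ± 0.48) and Casp2 (6.84 ± 0.19) were the highest, and each of these 3 overlapped its neighbours among them, while Casp2 and Casp8 did not overlap. Casp8 (5.34 ± 1.3), Casp12 (3.15 ± 1.62) and Casp1 (2.07 ± 0.38) followed and overlapped one another in turn, and Casp1 did not overlap Gsdmd. Gsdmd (0.903 ± 0.188) and Casp4 (0.64 ± 0.05) were lowest and did not overlap each other (SD, n = 3 each). In PTN cells Cflar led at 11.9 ± 2.23 FPKM, above all other members in each library. Casp12 (7.3 ± 1.55), Casp2 (7.2 ± 0.27), Casp9 (7.02 ± 0.95), Casp8 (6.15 ± 2.27) and Casp4 (5.2 ± 2.28) overlapped in turn, while Casp1 (3.41 ± 0.33) and Gsdmd (1.17 ± 0.35) came last and overlapped neither each other nor Casp4. Casp4 thus moved from the lowest place to the sixth, and Casp12 from the fifth to the second.

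Replicates of a group also differed from each other. In Control 1 the lowest Control value was found for 5 of the 8 genes, Casp1, Casp4, Casp8, Casp12 and Cflar, and the highest for the other 3, Casp2, Casp9 and Gsdmd. Among PTN libraries PTN 1 had the highest value for Casp1, Casp8, Casp12 and Cflar and the lowest for Casp2, Casp9 and Gsdmd. Such orders were not counted over all tested genes, so they are not read as a trait of the members. On the first principal component of all tested genes (52.3% of the variance) Control 1 was at -50.9, Control 2 at -26.0 and Control 3 at -23.4. PTN 1 was at 47.6, PTN 2 at 31.6 and PTN 3 at 21.1. The share of counts from mitochondrial genes was 4.47%, 7.47% and 5.76% in Control 1, Control 2 and Control 3 and 8.12%, 8.1% and 3.97% in PTN 1, PTN 2 and PTN 3. Within each group the libraries came in the same order by Casp12 as by this share. No other member had that order in both groups, and Casp12 was singled out after the values were seen. The part of this share in the levels was not tested.

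The genes whose profile over the 6 libraries was most like that of the 3 members of largest fold were found by the root mean square difference of log2 CPM, each centred on its own mean. Nearest to Casp4 were Clstn2, a synaptic calsyntenin gene (0.15 log2 units), Nrxn3, a presynaptic adhesion gene (0.18), and Cp, which encodes the copper protein ceruloplasmin (0.26). Nearest to Casp12 were Trp53inp1 (0.098), a p53-induced gene, Lrrc9 (0.11) and Plcb4, a phospholipase gene (0.12), and nearest to Cflar were Dach1 (0.047), Uaca (0.061) and the growth cone gene Basp1 (0.063). Among the members themselves Casp2 and Casp9 (0.15), Casp1 and Cflar (0.17) and Casp9 and Gsdmd (0.21) were the closest pairs. Casp4 was 0.68 from Casp12 and 1.01 from Casp1. The measure takes in the size of the fold, so genes of similar fold lie close by it. Shared regulation was not tested.

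The genes that act with these proteins were followed in lists. Of 12 tested inflammasome sensors and adaptors 1 rose and 0 fell (median log2 fold change 0.29). Nlrp6, a sensor best known from the intestine, averaged 0.349 ± 0.071 CPM among Control libraries against 1.16 ± 0.41 after PTN (SD, n = 3 each), a rise of 3.25-fold by edgeR's test (adjusted p = 0.0473), on 6 to 33 counts per library. Its call was lost without Control 1, Control 2, Control 3, PTN 2 or PTN 3 (edgeR adjusted p from 0.0584 to 0.181) and with upper-quartile scaling, no filter, limma-voom or a length trend removed (0.053 to 0.0701). Many canonical parts were too low to test. The adaptor Pycard was at 0.382 to 0.845 CPM in Control and 0.0892 to 0.272 CPM in PTN libraries, Nlrp3 was at most at 0.14 CPM, Aim2 at most at 0.31 CPM, and Nlrp1a and Mefv had 0 counts in every library. Among those tested, Gbp2, an interferon-induced GTPase gene, was at 20.3 and 37.8 CPM in Control and PTN cells without being called. PTN 2 stood highest at 61.2 CPM, and PTN 1 (23.8 CPM) was only just above Control 2 (23.7 CPM). Also uncalled were Gbp3 (29.2 and 21.0 CPM), Gbp5 (2.66 and 2.61 CPM) and Gbp7 (18.9 and 23.8 CPM).

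Of 8 tested genes of the interleukin 1 family and of membrane rupture 1 rose and 1 fell (median log2 fold change 0.08). Il18bp, the secreted decoy that binds interleukin 18, fell from 12.4 ± 1.72 to 4.23 ± 1.2 CPM (SD, n = 3 each), which edgeR's test put at 2.94-fold lower (adjusted p = 0.00768), and was called without each of the 6 libraries. Il1r1, the signalling receptor for interleukin 1, stood at 5.87 ± 0.97 CPM among Control libraries against 12.4 ± 1.11 after PTN and rose 2.11-fold (adjusted p = 0.0139 by edgeR). Its adjusted p was 0.0534 to 0.0645 when Control 1, Control 2 or Control 3 was left out. Of the cytokines that Casp1 matures, Il1b had 0 counts in every library and Il18 was at 23.3 and 18.4 CPM in Control and PTN cells, not called. Ninj1, needed for the final membrane rupture, was at 33.3 and 24.4 CPM and not called.

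Around Casp8 and Cflar, 2 of 17 tested genes of the death receptor complex rose and 0 fell (median log2 fold change 0.13). Tnfaip3, which encodes the NF-kB feedback inhibitor A20, had a Control mean of 1.52 ± 0.29 CPM and a PTN mean of 4.99 ± 1.32 (SD, n = 3 each) and rose 3.27-fold, with an adjusted p of 0.0118 by edgeR. Leaving out Control 1, Control 2 or Control 3 gave 0.0504 to 0.0596. Bid, the Casp8 substrate that links death receptors to mitochondria, averaged 8.79 ± 0.63 and 14.1 ± 1.79 CPM, a rise of 1.61-fold at an edgeR adjusted p of 0.0496. Leaving out any single library gave 0.0596 to 0.191, and upper-quartile scaling, library totals, no filter or limma-voom gave 0.0505 to 0.0615. The receptor genes Fas and Tnfrsf10b were at 15.9 and 20.9 CPM in Control and at 26.4 and 35.0 CPM in PTN cells with PTN values above all Control values, and neither was called (edgeR adjusted p = 0.0652 for both). Sharpin and Rbck1, parts of the linear ubiquitin ligase at these receptors, were at 22 and 57.8 CPM in Control and 15 and 43.3 CPM after PTN, below all Control values and also not called. In this list 6 of 17 genes lay wholly higher and 2 wholly lower, beside 15.7% and 17.1% of all tested genes. Fadd, the adaptor that binds both Casp8 and Cflar, was at 16.4 and 15.1 CPM, and the necroptosis genes Ripk3 and Mlkl were at 1.79 and 1.5 CPM and at 2.3 and 3.32 CPM, none of them called. The ligand Fasl had 0 counts in every library and Tnf at most 0.052 CPM.

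Around Casp9, 1 of 12 tested genes of the apoptosome and its regulators rose, Bid, which both lists hold, and 1 fell (median log2 fold change -0.13). Birc5, the survivin gene, which acts mainly in cell division, fell from 51 ± 2.44 to 33.1 ± 4.93 CPM (SD, n = 3 each), or 1.54-fold, at an adjusted p of 0.0449 by edgeR. That p was 0.0658 to 0.117 when Control 1, Control 2, Control 3, PTN 1 or PTN 2 was left out and 0.121 with a length trend removed. The scaffold Apaf1 was at 41.4 and 53.5 CPM in Control and PTN cells, Cycs at 235 and 232 CPM and Xiap, which blocks caspases directly, at 76.2 and 102 CPM, and none was called. Of the other caspases Casp6, which amplifies apoptosis, averaged 20.1 CPM among Control libraries against 18.5 after PTN and was not called, and Casp14 had 0 counts in every library. Of the 3 other caspases tested 0 were called by edgeR, DESeq2 or limma-voom, and 0 had an unadjusted edgeR p under 0.05.

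Around Casp2, 0 of 5 tested PIDDosome genes were called, the smallest edgeR adjusted p being that of Mdm2, the p53 ubiquitin ligase that activated Casp2 cuts, at 0.0697 with 41.4 ± 7.61 and 63.2 ± 6.95 CPM (SD, n = 3 each). At an unadjusted edgeR p under 0.05 there was 1, Mdm2, and DESeq2 called 1. Of 13 caspase substrates in apoptotic execution 0 were called, with 2 at an unadjusted edgeR p under 0.05, Parp1 and Sptan1, and 1 called by DESeq2. Sptan1, a spectrin gene, had an edgeR adjusted p of 0.122, with 980 ± 50.4 CPM among Control libraries against 1450 ± 382 after PTN (SD, n = 3 each).

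Of 13 tested genes of endoplasmic reticulum stress, the setting in which Casp12 was described, 1 rose and 0 fell (median log2 fold change 0.36). Ddit3, the stress-induced factor CHOP, went from 6.4 ± 0.72 to 11.7 ± 1.4 CPM (SD, n = 3 each), up 1.83-fold at an edgeR adjusted p of 0.0281. With Control 1, Control 2, Control 3 or PTN 2 left out, the p was 0.0507 to 0.162. Of 20 tested genes that induce inflammatory caspases, from Toll-like receptors to interferon factors, 1 rose and 0 fell (median log2 fold change 0.14). Ifngr2, a chain of the interferon gamma receptor, had a Control mean of 39.6 ± 0.45 CPM and a PTN mean of 62.8 ± 8.77 (SD, n = 3 each), 1.59-fold higher at an edgeR adjusted p of 0.0304. The p was 0.104 to 0.155 with Control 1, Control 2 or Control 3 left out and 0.0634 with a length trend removed. The lists share members, and their shares of called genes, from 0 to 25%, stand beside the 7.99% of all tested genes. The plot of the pathway lists shows where each gene fell.

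**Figure D4:**
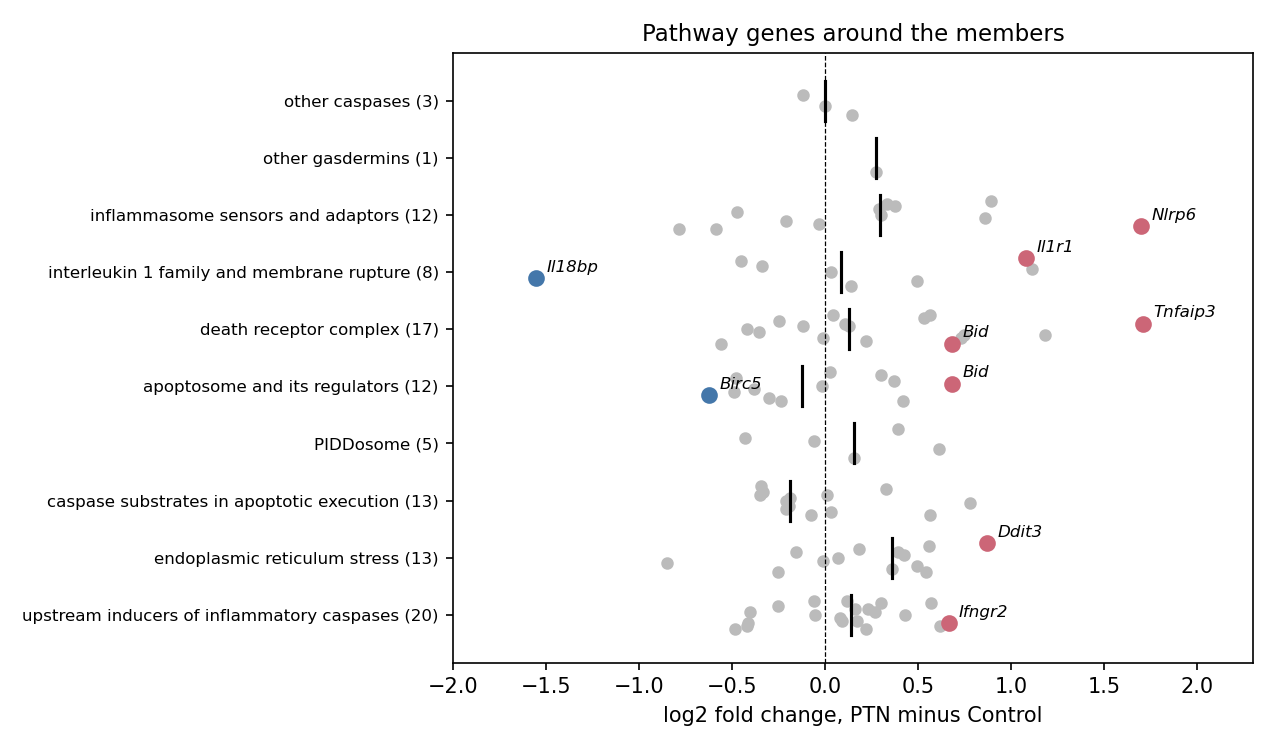
Log2 fold change, PTN minus Control, of each tested gene in 10 lists around the members (number tested in brackets, members themselves left out), with genes called higher in red, called lower in blue, not called in grey and the list median as a black line. Vertical spread within a row only separates the points. Nlrp6 and Tnfaip3 are the called genes farthest to the right and Il18bp is the one farthest to the left.

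Markers of other cells were measured beside these results. The 16 microglia and macrophage markers summed to 41.0 to 44.2 CPM in Control and 45.1 to 51.9 CPM in PTN libraries, and 3 of the 16 were expressed highly enough to be tested. Aif1 was at 0 in every PTN library and at most at 0.14 CPM in Control, Ptprc was at most at 0.134 CPM and Tyrobp at most at 0.364 CPM in any library. Csf1r was at 0.127 to 0.306 CPM in Control and 0.31 to 0.832 CPM in PTN libraries, Itgam at 0.0423 to 0.115 and 0.0388 to 0.416 CPM, and C1qa at 0.0845 to 0.421 and 0.0388 to 0.268 CPM. Of 9 endothelial and mural markers, summing to 29.0 to 30.8 CPM in Control and 10.6 to 16.2 CPM in PTN libraries, 2 of 5 tested fell, beside 3.06% of all tested genes. Both are mural markers, Acta2 at 16.7 and 3.37 CPM and Pdgfrb at 6.06 and 1.08 CPM in Control and PTN cells. The endothelial markers Kdr (1.04 and 2.35 CPM), Cdh5 (0.102 and 0.544 CPM), Emcn (0.058 and 0.426 CPM) and Pecam1 (0.541 and 0.945 CPM) had higher means after PTN, and of these Kdr and Pecam1 were tested and not called. Tek (0.124 and 0.189 CPM) also had a higher mean and Cldn5 (0.107 and 0.0129 CPM) a lower one, and neither was tested. The mural marker Rgs5 (5.08 and 4.61 CPM) was tested and not called. Of 8 fibroblast and meningeal markers, summing to 188 to 218 and 83.4 to 87.0 CPM, 3 of 7 tested fell and 1 rose. Of all tested genes 3.06% fell and 4.93% rose. Those that fell were Pdgfra (95.3 and 24.4 CPM in Control and PTN cells), Fn1 (89.9 and 41.2 CPM) and Col3a1 (4.63 and 1.36 CPM). Foxc1 rose (5.74 and 15.6 CPM). Most of the sum came from Pdgfra and Fn1, and which cells carried them was not tested, so the sum is no measure of fibroblasts. Col1a1 (1.65 and 1.26 CPM), Col1a2 (2.05 and 0.737 CPM) and Dcn (0.472 and 0.738 CPM) were low and not called. The 9 lymphocyte and granulocyte markers summed to at most 0.38 CPM, with 5 at 0 in every library, Cd3e, Cd3g, Ms4a1, Ncr1 and Ly6g. The part of other cells in the levels of the caspase genes was not tested, and in bulk samples fewer cells of a type and less RNA per cell cannot be told apart.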

How the data were processed

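Expected counts and FPKM values per gene were measured by RNA-seq in 6 libraries, 3 Control and 3 PTN. Per the labels' protocols RNA was isolated on a column and libraries were made with a SMARTER mRNA kit. No source used here names the aligner, counter, build or annotation. The deposited expected counts are estimated and unscaled, and 92.0% to 92.8% of them per library are whole within 0.005. The deposited FPKM values are scaled by gene length and depth.

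Columns were matched to the titles by group initial and number. Expected counts were rounded, genes kept by filterByExpr (13161 of 22322), and groups compared with edgeR's quasi-likelihood test (edgeR 4.0.16, R 4.3.3) after TMM scaling, with Benjamini-Hochberg adjustment over all tested genes. The SE is the log2 fold change divided by the square root of F. The test was checked on simulated counts. Each library's CPM rests on 19267764 to 26341745 counts. No 2 replicates agreed within sampling noise (chi-square of at least 11.9 times its degrees of freedom).

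The members, lists and motifs were chosen with earlier results of these data known. The named genes are the 8 members, from each list up to 4 called genes of smallest p or else the gene of smallest p, the 3 nearest profiles (mean of at least 1 CPM, 0.5 CPM added) of the 3 members of largest fold, and fixed markers. Other genes named, among them Gbp2, Fas, Tnfrsf10b, Apaf1 and the genes listed at 0, were chosen after their values were seen. Alternatives were other scalings and filters, DESeq2 1.42.0, limma-voom (limma 3.58.1), the replicate block, an adjusted p under 0.1, a length trend removed and leaving out each library. Protein sequences were not analysed here, and the values of some genes in the lists are not reported here.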

Additional observations from a re-analysis of the deposited data

How the results depend on the processing

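The members were chosen on this contrast, so their calls in other fits are no support for them. Over the 15 other fits the fold of Casp4 ranged from 6.81 to 9.51. Cflar lost its call in 5 of them, the replicate block among them, and Casp12 was called by DESeq2, without PTN 3 and at an adjusted p under 0.1.

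All genes called numbered 1052, but 1908 by DESeq2, 1913 at an adjusted p under 0.1 and 331 to 2177 with single libraries left out. Members called numbered 2, but 1 with the replicate block and 1 to 3 with single libraries left out, those without Control 1, Control 2, Control 3 or PTN 1 leaving Casp4 alone.

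List counts changed as follows, the value with all libraries first. Inflammasome: 1, but 0 with upper-quartile scaling, the 1 CPM filter, limma-voom, the replicate block and the length trend removed, 3 by DESeq2, 2 at 0.1 and 0 to 2 with libraries left out. Interleukin 1: 2, but 3 with upper-quartile scaling, library totals and no filter, 3 by DESeq2 and 1 to 4 with libraries left out. In that list Il1rap, at an edgeR adjusted p of 0.0509 with all libraries, was also under 0.1. Death receptor: 2, but 1 with upper-quartile scaling, library totals, no filter, limma-voom and the block, 4 by DESeq2, 5 at 0.1 and 0 to 2 with libraries left out. Apoptosome: 2, but 1 with upper-quartile scaling, library totals, no filter, limma-voom and the length trend removed, 0 with the block and 0 to 3 with libraries left out. PIDDosome: 0, but 1 by DESeq2 and at 0.1. Substrates: 0, but 1 by DESeq2 and 0 to 2 with libraries left out. Endoplasmic reticulum stress: 1, but 3 by DESeq2 and at 0.1, 2 with the length trend removed, 0 with the block and 0 to 2 with libraries left out. Inducers: 1, but 0 with the block and the length trend removed and 0 to 2 with libraries left out. The causes were not tested. A fit without 1 library has fewer samples.

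Signs turned for Casp6 with the length trend removed (log2 fold change 0.020), for Casp8 without Control 1 (-0.021) and PTN 1 (-0.12), and for Casp9 without PTN 1 (0.017). With single libraries left out Casp8 ranged from -0.12 to 0.47 and Casp9 from -0.18 to 0.017. The ratio of Casp8 to Cflar in PTN relative to Control, 0.667, was 0.649 on counts and 0.604 to 0.759 with libraries left out.

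The labels used here do not say whether the replicate numbers pair the samples. Deviations of same-numbered libraries correlated at -0.51, 0.36 and -0.005, which with 3 libraries per group cannot decide it. The fit with the replicate block left Cflar, Nlrp6, Bid, Birc5, Ddit3 and Ifngr2 uncalled (edgeR adjusted p from 0.0684 to 0.13). Depth limits Gsdmd, Nlrp6 and Casp4 in Control, at 45 counts or fewer per library.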

Other observations

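The pathway terms that the deposited table gives per gene were read after the files were seen. Casp1, Casp4, Casp8, Casp12 and Gsdmd carry the NOD-like receptor term, which covers 117 other tested genes, 7 of them called higher and 0 lower (5.98%). Casp2, Casp8, Casp9, Casp12 and Cflar carry the apoptosis term, in which 9 of 113 other tested genes were called higher and 4 lower (11.5%). Casp1, Casp8 and Cflar carry the necroptosis term, in which 5 of 106 other tested genes were called higher and 4 lower (8.49%). Over all tested genes 7.99% were called. The median log2 fold change of these other genes was 0.11, 0.19 and 0.03 for the 3 terms in turn.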
